A study of Mus musculus with 36 samples.

Results

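The later course of an RNA-triggered response was followed by setting mouse dendritic cells collected 6 h after transfection of PAMP RNA directly against the same cells collected at 3 h, with the genotype as a blocking factor. The comparison used 12 of the 36 RNA-seq libraries: 3 from KO cells and 3 from WT cells at 6 h, and 3 from each at 3 h. The KO cells are labelled Dhx58-/- and lack LGP2 by that label, and the WT cells are wild type; all were C57BL/6 bone-marrow cells grown with GM-CSF and then selected on CD11c, and the cells of all 12 libraries had been transfected with PAMP RNA (20 ng), a uridine-rich sequence taken from the hepatitis C virus genome. The 12 mock libraries of 3 h and 6 h (3 per genotype and time), from cells the labels describe both as mock-treated and as left untreated, gave the change over the same hours without PAMP RNA. Cells were plated in triplicate, and the labels do not say whether the 3 libraries of a group came from separate mice, so p-values reflect only the scatter among these libraries, which may be technical.

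PAMP RNA of this kind is a ligand of RIG-I, a cytosolic RNA helicase that signals through MAVS to the transcription factors IRF3, IRF7 and NF-kB. The first wave of transcription includes Ifnb1 and a few other cytokines; secreted interferon then acts through its receptor, the kinases JAK1 and TYK2 and STAT-family transcription factors to switch on many interferon-stimulated genes, among them Irf7, which in turn serves transcription of the many Ifna genes. In dendritic cells the same stimulus starts maturation, the change from antigen-sampling cells to migrating cells that display antigen and co-stimulatory molecules to T cells.

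The 12 libraries held 4740909 to 9520520 reads in genes, the lowest being replicate 1 of KO cells at 3 h, and detected 14371 to 15356 genes each. The smallest Pearson correlation of any pair within a group was 0.991. Values are the authors' DESeq-normalized counts, and changes are given as 6 h minus 3 h on the scale log2(normalized count + 1), so that a change of 1 is a doubling; the 11845 genes with a mean of at least 10 over the 12 libraries were tested. The summed normalized counts were 9511224 to 10494569 per library at 6 h and 8032241 to 8505253 at 3 h. Scaling all libraries to equal total reads therefore lowered the change of the median gene to -0.24, against 0.03 on the deposited scale, and the counts of each gene list are given on both scales. The dendritic markers Itgax (2511 at 6 h and 2729.7 at 3 h, medians) and H2-Ab1 (9569 and 7166) were abundant, but so were the macrophage markers Csf1r (6478 and 5485) and C1qa (3766 and 2502), while Cd209a was at 0 and 2.36. Most tested markers of both classes rose after PAMP RNA, against 36.0% of all genes. They were 8 of 9 macrophage and 7 of 11 dendritic markers (with equal total reads 6 and 6 higher, 2 and 2 lower). The summed counts were 38963 to 41562 at 6 h and 26099.7 to 28804 at 3 h for macrophage markers and 38669 to 48098 at 6 h and 28970.2 to 38062 at 3 h for dendritic markers. In mock cells 6 of these macrophage markers and 5 of these dendritic markers also rose. The change after PAMP RNA went above that of mock cells in 5 of each class and below it in 1 macrophage marker. The part of these shifts in the results was not tested. No B, T, NK, mast cell or erythroid marker reached a mean of 10. Of 4 plasmacytoid dendritic markers 1 was tested and rose by 0.83 (mock 1.62). The summed count of these 4 was 62.5 to 82.5 at 6 h and 35.4 to 48.8 at 3 h. The 2 tested neutrophil markers and the 1 tested stroma and endothelium marker were not called. With equal total reads the 2 neutrophil markers were called lower and the plasmacytoid marker stayed higher. Dhx58, the gene of LGP2, averaged 935 ± 111 normalized counts in KO cells and 3005 ± 62.9 in WT cells at 6 h, and 595 ± 24.7 in KO cells and 1477 ± 61.7 in WT cells at 3 h (SD, n = 3 each). Reads in KO cells do not show which exons remain, and an antisense gene overlaps Dhx58, so KO and WT stand for the libraries labelled so.

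Between 3 h and 6 h 4266 genes rose and 3575 fell (limma adjusted p under 0.05), which is 36.0% and 30.2% of the 11845 genes tested and 66.2% together. Most changes were small: 472 genes rose and 415 fell by more than 1, and 53 rose and 19 fell by more than 2. In 3097 genes (26.1%) the 3 libraries at 6 h all lay above the 3 at 3 h in both genotypes, and in 2414 (20.4%) all below. With the genotypes pooled, all 6 libraries at 6 h lay above all 6 at 3 h in 2327 genes (19.6%) and below them in 1959 (16.5%). List members named below for the largest change tend to be apart in this way, so their separation is no further result. With equal total reads 1968 genes rose and 6673 fell, so the share of rises among the calls was 22.8%, against 54.4% on the deposited scale. All 1968 were among the 4266. Quantile normalization gave 3705 higher and 3994 lower. These counts over all 11845 genes are the background for list counts on the same scale, so many falls with equal total reads are common to all genes. The mock cells changed over the same hours too, with 3449 rises (29.1%) and 3291 falls (27.8%). Of the genes that rose after PAMP RNA 2126 (49.8%) also rose in mock cells, and 2525 (59.2%) rose by more than mock cells did. Of the genes that fell 1892 (52.9%) also fell in mock cells, and 1884 (52.7%) fell by more than there. Over all genes tested, 3258 (27.5%) moved above the mock change and 2735 (23.1%) below it, 50.6% together. For each gene list below, the change in stimulated cells is therefore given beside the change in mock cells.

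**Figure D1:**
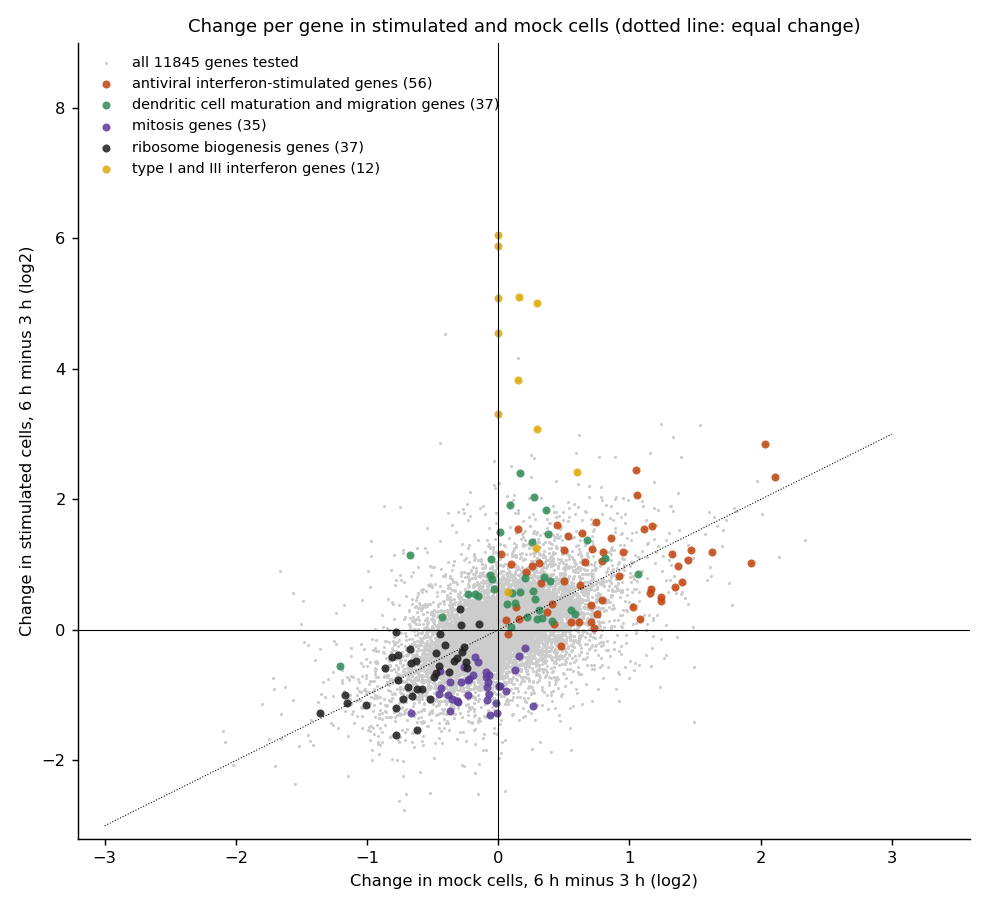
Change from 3 h to 6 h (6 h minus 3 h, log2) of each of the 11845 genes tested in stimulated cells (vertical axis) against mock cells (horizontal axis), with 5 gene lists in colour; the dotted line marks equal change. Most interferon genes lie far above the line at mock changes near 0, while Ifnb1 changed less. The mitosis genes lie mostly below the line, and the ribosome biogenesis genes (medians -0.58 and -0.62) fall in both.

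The interferon genes gave the largest rises. Ifnb1, the interferon made first after RNA sensing, had 1211, 1534 and 1878 normalized counts at 6 h in its lowest, median and highest library, against 879, 947 and 1401 at 3 h. It rose by only 0.57 ± 0.06 (log2 ± SE, limma adjusted p = 1.87e-10), and the ranges at the different times overlapped when genotypes were pooled but not within either genotype. Ifna4, the Ifna gene known in mouse cells to be induced early with Ifnb1, had 421, 588 and 809 at 6 h, against 191, 241 and 358 at 3 h, a rise of 1.25 ± 0.06. All 6 libraries at 6 h lay above all 6 at 3 h. The other interferon alpha genes rose far more. Ifna2 had 544, 815 and 1060.5 at 6 h, against 99.6, 139.5 and 234 at 3 h (change 2.42 ± 0.07). Ifna5 had 315, 489.9 and 696 at 6 h, against 38.1, 57.1 and 83.5 at 3 h (3.08 ± 0.08). For Ifna1 (3.30 ± 0.11), Ifna14 (3.83 ± 0.19), Ifna9 (4.55 ± 0.19), Ifna11 (5.01 ± 0.22) and Ifna6 (5.10 ± 0.20) the medians at 6 h were 297, 173, 215, 196 and 216, against 30.6, 13.8, 6.65, 4.04 and 4.69 at 3 h.

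Some interferon genes were close to absent at 3 h. Ifna15 had 44.8, 95.0 and 134 at 6 h and Ifnab 53.1, 101 and 166, against 0, 0 and 0.984 and 0, 0.914 and 1.81 at 3 h. Over the 6 libraries Ifna15 had 429 reads at 6 h and 2 at 3 h, a ratio of 257-fold (95% interval 70.6 to 2127), and Ifnab had 499 and 5 reads, a ratio of 119-fold (95% interval 50.8 to 369). Ifna12 had 72 reads at 6 h and 0 at 3 h in WT cells, at least 31.5-fold higher when the WT libraries of 3 h together are credited with 3 reads, and 144 and 3 in KO cells. Ifna16, with 52 and 14 reads, Ifna13, with 9 and 6, and Ifna7, with 7 and 2, were too low to be tested. Ifne and Ifnl2 had 0 reads and Ifnl3 1 read at each time. Of the 18 interferon genes listed 12 were tested and all 12 rose (median 4.19, mock 0.11), with 12 higher and 0 lower with equal total reads. In 11 of the 12 the rise went beyond the mock change, and 1 of the 12 was also called higher in mock cells. However, 6 of the 12 had a mean under 10 at 3 h and passed the filter only through their level at 6 h. The Ifna genes are near-identical copies on chromosome 4, and the labels do not say how reads that match several of them were counted, so the split among them is uncertain. Bulk RNA cannot tell more producing cells from more RNA per cell, here or in any gene below.

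The balance within the family shifted as well. The summed normalized counts of the interferon alpha genes and Ifnab, divided by that of Ifnb1 in the same library, had medians of 0.306 at 1 h, 0.495 at 3 h and 2.05 at 6 h, with ranges of 0.252 to 0.339, 0.407 to 0.637 and 1.72 to 2.46 over 6 libraries each. Library scaling cancels in this ratio, and as a description it carries no test. The KO libraries lay above the WT libraries at each of the 3 times. In mock cells the medians of Ifnb1 were 1.29 at 6 h and 0.94 at 3 h, and those of Ifna2 0.855 and 0. The plot of interferon genes by library shows the small step of Ifnb1 beside the late rise of the Ifna genes.

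**Figure D2:**
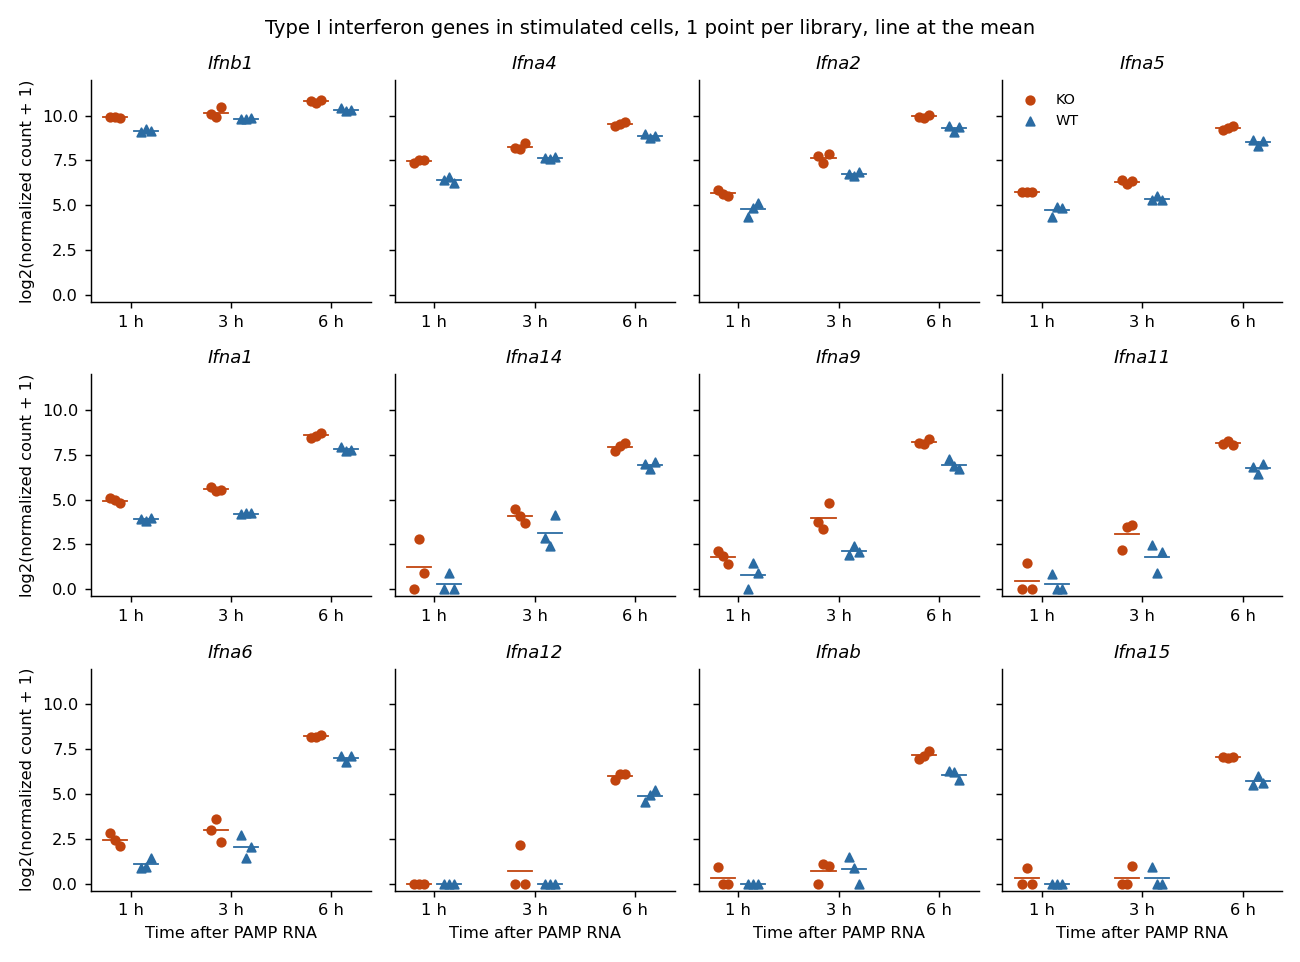
Level of the 12 tested type I interferon genes, log2(normalized count + 1), at 1, 3 and 6 h after PAMP RNA in KO cells (circles) and WT cells (triangles), 1 point per library with a line at the mean of 3. Ifnb1 is already high at 1 h, whereas Ifna12, Ifnab and Ifna15 leave the baseline only at 6 h.

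A promoter here is the 250 bases before the annotated start in RefSeq on GRCm38. The promoters of these genes are shown because Ifnb1 and the Ifna genes differ in the pattern matches described below. They were searched on both strands, overlapping matches included, for ISRE, the interferon-stimulated response element bound by IRF factors (GAAA, any 2 bases, GAAA), and for the NF-kB site. The first sequence is Ifnb1 (chr4:88522795-88523044, minus strand), with capitals at its NF-kB match, and the others are Ifna4 (chr4:88841566-88841815, plus strand), Ifna11 (chr4:88819669-88819918, plus strand) and Ifna15 (chr4:88558246-88558495, minus strand), with capitals at the ISRE matches.
Ifnb1: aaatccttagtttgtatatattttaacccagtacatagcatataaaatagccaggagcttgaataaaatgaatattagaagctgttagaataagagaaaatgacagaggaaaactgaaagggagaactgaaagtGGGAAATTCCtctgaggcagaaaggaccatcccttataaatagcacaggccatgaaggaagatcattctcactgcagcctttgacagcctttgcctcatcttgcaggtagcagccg
Ifna4: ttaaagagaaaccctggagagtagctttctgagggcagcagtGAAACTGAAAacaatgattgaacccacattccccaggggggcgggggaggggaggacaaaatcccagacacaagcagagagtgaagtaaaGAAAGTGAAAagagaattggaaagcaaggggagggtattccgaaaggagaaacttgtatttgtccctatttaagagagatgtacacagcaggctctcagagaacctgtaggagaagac
Ifna11: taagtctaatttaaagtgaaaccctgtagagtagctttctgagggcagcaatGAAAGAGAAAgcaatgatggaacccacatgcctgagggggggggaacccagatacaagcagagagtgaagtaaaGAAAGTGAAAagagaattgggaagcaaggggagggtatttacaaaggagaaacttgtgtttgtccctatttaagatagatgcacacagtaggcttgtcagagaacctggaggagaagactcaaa
Ifna15: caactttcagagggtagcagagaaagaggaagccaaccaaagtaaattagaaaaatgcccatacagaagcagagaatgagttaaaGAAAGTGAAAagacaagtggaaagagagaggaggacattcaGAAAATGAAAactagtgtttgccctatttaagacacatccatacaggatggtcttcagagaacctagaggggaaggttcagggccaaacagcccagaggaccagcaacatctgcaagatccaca
An ISRE match was found in 11 of the 12 tested interferon promoters, all except that of Ifnb1, and an NF-kB match in 1 of 12, that of Ifnb1. The Ifnb1 window does hold the stretch gaaaactgaaa, whose GAAA runs the fixed pattern misses by their spacing. The lack of an ISRE match there is therefore not a lack of such elements. Among all 32851 promoter windows of this length 2.98% held an ISRE match and 3.90% an NF-kB match. The early Ifna4 and the late Ifna11 and Ifna15 each held 2 ISRE matches, so the number of matches does not separate them. In Ifna4 they began 208 and 118 bases before the start, in Ifna11 198 and 124 and in Ifna15 165 and 124. Ifna13 and Ifna16, too low to be tested, held none. Matches are letters in these windows and not shown to be sites, and a window without a match says nothing of the factor. Among tested genes with a promoter in the table, 169 of 3227 that rose (5.24%) and 71 of 2711 that fell (2.62%) held an ISRE match, against 322 of all 8969 (3.59%).

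The interferon-stimulated genes rose further, unevenly. Of 56 tested antiviral genes 53 rose and 1 fell, with a median change of 0.94 beside 0.74 in mock cells, where 52 rose; quantile normalization gave 39 higher and 7 lower, and equal total reads 43 and 10. The mock levels were far lower: the summed count of the list was 608050.0 ± 16378 in KO cells and 462782 ± 16269 in WT cells at 6 h after PAMP RNA and 33652 ± 1949 and 37404 ± 5677 in mock cells (SD, n = 3 each). Late genes of the list were Ms4a4c, a membrane protein of the MS4A family, with 2059.6, 3110.2 and 3803 at 6 h, against 320.2, 413 and 488 at 3 h (change 2.85 ± 0.05), and Isg20, an exonuclease that degrades RNA, with 1639, 2167 and 2689 at 6 h, against 304, 399 and 496 at 3 h (2.45 ± 0.08). Ifi44 (2.34 ± 0.05) and Phf11d (2.06 ± 0.05) followed. In these 4 genes every library at 6 h lay above every library at 3 h, as in 19.6% of all genes tested. Isg15, a ubiquitin-like modifier, had 12373, 14252 and 17014 at 6 h, against 4442, 4897 and 5343 at 3 h and rose by 1.55 ± 0.04. Bst2, which tethers budding virus to the cell, had 3188, 3762 and 4351 at 6 h, against 1169, 1273 and 1446 at 3 h and rose by 1.54 ± 0.05, against 0.15 in mock cells.

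Several strongly induced genes changed less. Ifit1, which binds RNA lacking host-type caps, had 25802, 33026 and 39949.7 at 6 h, against 26158, 28919.8 and 34559.6 at 3 h, after a median of 594 at 1 h. Its change of 0.16 ± 0.04 (limma adjusted p = 0.00182) turned to -0.29 after quantile normalization and -0.11 with equal total reads. Mx1, a dynamin-like GTPase, changed by 0.40 ± 0.04 and Ifit3 by 0.66 ± 0.03. After quantile normalization Mx1 turned to -0.18. Rsad2, which makes the chain-terminating nucleotide ddhCTP, had 53849.6, 76071 and 100994 at 6 h, against 34155, 45223 and 61374 at 3 h (0.73 ± 0.05). Trim25, the ubiquitin ligase of RIG-I, fell by 0.24 ± 0.04 to 5331, 5722 and 6399.8 at 6 h, against 6359, 6830.0 and 7535 at 3 h, while it rose by 0.48 in mock cells. Parp14 (0.04 ± 0.04) and Ifi27 (-0.06 ± 0.07) were not called. Relative to mock cells, 24 of the 56 moved above the mock change and 21 below it. Bst2 (difference 1.40 ± 0.07), Ifi27l2a (1.14 ± 0.08) and Isg20 (1.40 ± 0.19) stood above, and Ifit1 (-0.92 ± 0.17), Oas2 (-0.89 ± 0.14), Ifit3 (-0.69 ± 0.12) and Rsad2 (-0.67 ± 0.14) below.

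The machinery of sensing and of interferon signalling shifted less. Of 29 tested sensing genes 16 rose and 9 fell (median 0.37, mock 0.15), with 14 higher and 12 lower after quantile normalization and 15 higher and 14 lower with equal total reads. The RNA helicase RIG-I, Ddx58, had 4119, 4620.4 and 5181 at 6 h, against 2941, 3463 and 4004 at 3 h (0.43 ± 0.03), and the helicase MDA5, Ifih1, had 5444, 7014 and 8318 at 6 h, against 4364, 5271 and 6819 at 3 h (0.37 ± 0.04, turning to -0.026 after quantile normalization). The adaptor Mavs fell by 0.37 ± 0.06 to 255, 261 and 306 at 6 h, against 340.0, 346 and 357 at 3 h. The kinase gene Ikbke rose by 0.88 ± 0.04, the TLR3 adaptor Ticam1 by 0.66 ± 0.07 and the endosomal RNA receptor Tlr7 by 0.51 ± 0.04. Of 24 tested genes of the interferon receptor, JAK kinases, STATs and IRFs 19 rose and 1 fell (median 0.35, mock 0.20), with 12 higher and 7 lower with equal total reads. Irf7 was the steepest of them, with 8995, 11629 and 14423 at 6 h, against 2756, 3469 and 4181 at 3 h, all libraries apart, after a median of 41.4 at 1 h; its change of 1.74 ± 0.04 stood beside 1.65 in mock cells, whose median was 156 at 6 h. Irf8 (0.88 ± 0.04), Tyk2 (0.87 ± 0.04) and Stat4 (0.81 ± 0.09) rose as well. Stat2 (0.33 ± 0.04) and Irf9 (0.10 ± 0.04) rose little and turned to -0.058 and -0.11 after quantile normalization; Irf9 also turned to -0.17 with equal total reads and lost its call without KO replicate 1 at 3 h (0.086), WT replicate 1 at 6 h (0.091) or KO replicate 2 at 6 h (0.090).

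The brakes on these signals went different ways. Of 17 tested 10 rose and 4 fell (median 0.28, mock 0.11), with 7 higher and 7 lower with equal total reads. Socs1, an inhibitor of JAK kinases, had 1461, 2799.6 and 3990.3 at 6 h, against 2372, 3867 and 6211 at 3 h and fell by 0.45 ± 0.09, and its relative Cish fell by 0.74 ± 0.07. Socs3 rose by 0.58 ± 0.06, the phosphatase Ptpn6 by 0.89 ± 0.04 and Il1rn, the antagonist of the interleukin-1 receptor, by 1.43 ± 0.04 to 13538, 15582 and 18618 at 6 h, against 5477, 5767 and 6314 at 3 h. Usp18, which removes ISG15 and blocks the interferon receptor, rose by 0.38 ± 0.04, a call lost after quantile normalization. The libraries of Socs1 overlapped between times, while those of Cish and Il1rn did not. Of 18 guanylate-binding proteins and immunity-related GTPases, which attack vacuoles of intracellular pathogens, 16 rose and 2 fell (median 0.36, mock 0.36), with 10 higher and 5 lower after quantile normalization and 9 higher and 3 lower with equal total reads. Gbp2 had 23508, 26085 and 31199 at 6 h, against 9446, 10508 and 12759.5 at 3 h (1.31 ± 0.04), Gbp2b rose by 1.99 ± 0.06, Iigp1 by 1.29 ± 0.05 and Gbp3 by 1.04 ± 0.04; Iigp1 rose more in mock cells (1.71), where its median at 6 h was 27.2. Reads of close GBP copies may be shared.

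Cytokine and chemokine transcripts went different ways. Of 20 tested cytokine genes 14 rose and 3 fell (median 0.64, mock 0.29), with 13 higher and 7 lower with equal total reads. Of 20 chemokine genes 12 rose and 5 fell (median 0.47, mock 0.12), with 11 higher and 8 lower with equal total reads. The interferon-induced chemokine Cxcl10, which draws T cells, had 11187, 17099 and 22427 at 6 h, against 20000.2, 25486 and 31178 at 3 h, after 463 at 1 h. It fell by 0.63 ± 0.04 (limma adjusted p = 1.77e-14), whereas it rose by 0.57 in mock cells, and the libraries of each genotype were apart. Its relatives Cxcl9 (1019, 1879.9 and 2808 at 6 h, against 879, 1471 and 2065 at 3 h) and Cxcl11 (289, 480.5 and 699.6 at 6 h, against 238, 297 and 391 at 3 h) rose by 0.32 ± 0.06 and 0.60 ± 0.07, the first of them not called after quantile normalization or with equal total reads. Il6 had 167, 215 and 302 at 6 h, against 229, 268 and 390.3 at 3 h and fell by 0.41 ± 0.08. Cxcl1 (-0.48 ± 0.20) and Tnfsf13b, which encodes the B-cell factor BAFF (-0.73 ± 0.24), fell too, with medians at 6 h of 19.0 and 16.0, against 23.4 and 27.4 at 3 h.

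Tnf had 3864, 4897 and 6141 at 6 h, against 2315, 2880.3 and 4026 at 3 h (0.71 ± 0.04). Il1b had 705, 778 and 843 at 6 h, against 339, 374 and 401 at 3 h (1.06 ± 0.05). Il12b, the p40 subunit of interleukin-12 and interleukin-23, had 232, 261 and 284 at 6 h, against 113, 119 and 139 at 3 h (1.09 ± 0.08). In mock cells the change of Il12b was -0.06 and was not called. Tnfsf15 rose by 1.87 ± 0.05, as it did in mock cells (1.80), while Il18 (1.50 ± 0.11; mock 0.30) and Tnfsf9, the ligand of the T-cell receptor 4-1BB (1.47 ± 0.11; mock 0.38), stood above the mock change. Other chemokines rose. Ccl22 had 24680.1, 29291 and 37478 at 6 h, against 8302, 10510.3 and 13393 at 3 h (1.50 ± 0.04; mock 0.01). Ccl5 had 5448, 6696 and 7009.6 at 6 h, against 2189, 2452 and 2656 at 3 h (1.41 ± 0.05; mock 0.08). Ccl7 had 347, 429 and 515 at 6 h, against 139.9, 169.6 and 189 at 3 h (1.36 ± 0.08; mock -0.97). In Ccl5 and Ccl7 all libraries at 6 h lay above all at 3 h. Ccl17, a CCR4 ligand like Ccl22, fell by 0.55 ± 0.05 and by more in mock cells (-1.21). Cx3cl1 rose by 1.25 ± 0.06, Ccl4 by 0.82 ± 0.05, Ccl2 by 0.77 ± 0.05 and Ccl3 by 0.38 ± 0.05.

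**Figure D3:**
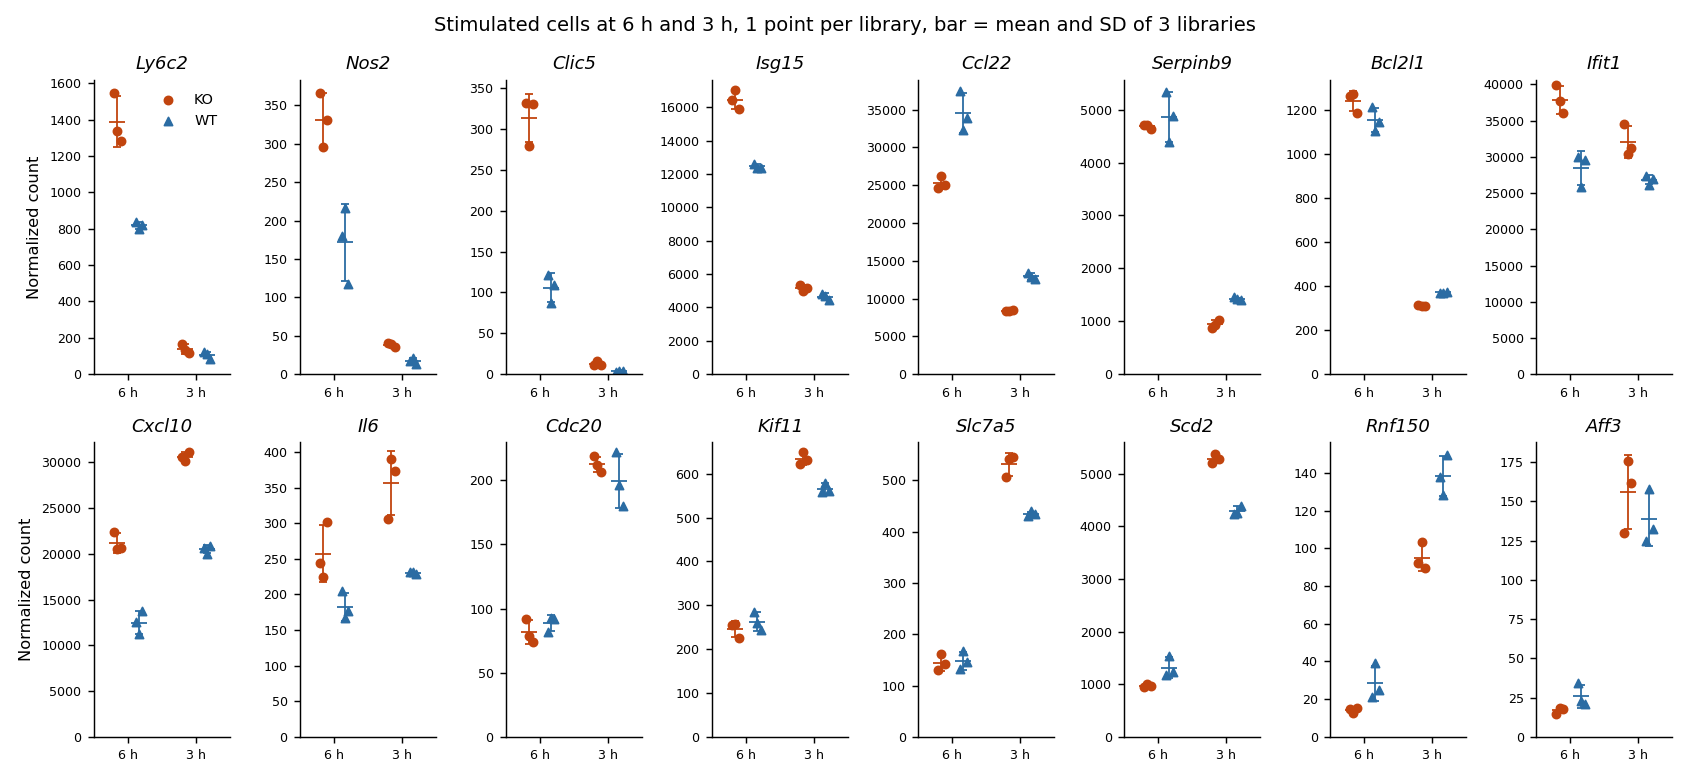
Normalized count of 16 genes in each library at 6 h and 3 h after PAMP RNA, KO cells as circles and WT cells as triangles, with the mean and SD of 3 libraries. Ly6c2, Nos2, Clic5 and Bcl2l1 are higher at 6 h, Ifit1 lies near its 3 h level, and Cxcl10, Scd2 and Aff3 are lower.

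Immediate-early and NF-kB genes respond early to a stimulus. Of 32 tested immediate-early and AP-1 genes 20 rose and 4 fell (median 0.38, mock 0.10), with 15 higher and 10 lower with equal total reads. Egr1 was not called (-0.04 ± 0.06), with medians of 1198, 933 and 925 at 1, 3 and 6 h, and was called lower after quantile normalization (-0.21) and with equal total reads (-0.32), while Egr2 rose by 0.96 ± 0.05, Junb by 0.81 ± 0.06, Fos by 0.40 ± 0.06 and Myc by 0.74 ± 0.07. Of 25 tested NF-kB subunits and inhibitors 23 rose and 0 fell (median 0.44, mock 0.24), with 16 higher and 4 lower after quantile normalization and 14 higher and 4 lower with equal total reads. The inhibitor Nfkbia had 3480.0, 3966 and 4271 at 6 h, against 2728, 2878 and 3142 at 3 h (0.44 ± 0.04), and the de-ubiquitinase Tnfaip3, known as A20, 3785, 4049 and 4379 at 6 h, against 2580.0, 2862 and 3436 at 3 h (0.49 ± 0.04). Traf1 (1.19 ± 0.05), Nfkbib (0.92 ± 0.06) and Nfkbid (0.86 ± 0.06) rose more. The promoters of 9 of 21 of these genes (42.9%) held an NF-kB match, against 496 of 8969 tested genes (5.53%).

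After PAMP RNA several feedback genes were lower at 3 h than at both other times. The MAP kinase phosphatase Dusp1 had medians of 869, 403 and 685 at 1, 3 and 6 h, and Spred2, an inhibitor of RAS signalling, 196, 49.9 and 112. Zfp36l2, which binds AU-rich elements and speeds mRNA decay, had 3355, 1077 and 2271. Between 3 h and 6 h Dusp1 rose by 0.79 ± 0.06, Spred2 by 1.28 ± 0.11 and Zfp36l2 by 1.12 ± 0.05. Of 14 tested phosphatases and Sprouty-family brakes 10 rose and 1 fell (median 0.42, mock 0.05), with 6 higher and 4 lower with equal total reads. Of 16 decay factors 14 rose and 0 fell (median 0.29, mock 0.23, where 11 rose), with 7 higher and 4 lower with equal total reads. The summed phosphatase and Sprouty list was lowest at 3 h in mock cells of both genotypes, but after PAMP RNA only in WT cells. Its means at 1, 3 and 6 h were 6270, 4871 and 5319 in WT and 5392, 4625 and 5000 in KO mock cells. After PAMP RNA they were 6586, 6204 and 7787 in WT cells and 5632, 6431 and 7791 in KO cells, where the sum was lowest at 1 h. Zc3h12a, the endonuclease Regnase-1 that cuts cytokine mRNA, rose by 0.71 ± 0.05. The anti-apoptotic Bcl2l1 was also lowest at 3 h, with medians of 731, 342 and 1199.9. Its libraries read 1105, 1199.9 and 1273 at 6 h, against 308, 342 and 373 at 3 h, a rise of 1.81 ± 0.06, whereas it fell by 0.31 in mock cells.

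Genes of dendritic cell maturation rose almost together. Of 37 tested 34 rose and 1 fell, with a median of 0.60 beside 0.21 in mock cells, and 27 moved above the mock change; the counts were 31 higher and 4 lower after quantile normalization and 27 higher and 5 lower with equal total reads. Cd70, the ligand of CD27 on T cells, changed by 2.40 ± 0.22, to 41.5, 47.9 and 53.4 at 6 h, against 3.94, 9.24 and 12.4 at 3 h. Fscn1, the actin bundler of dendrites, had 10141, 10929 and 14969.5 at 6 h, against 2647, 3422 and 3854 at 3 h (1.84 ± 0.05), and Serpinb9, an inhibitor of granzyme B, 4386, 4706 and 5331 at 6 h, against 872, 1215 and 1449.6 at 3 h (2.04 ± 0.06). Cd70 had a mean under 10 at 3 h and passed the filter only through its level at 6 h. In Fscn1 and Serpinb9 no library at 6 h overlapped any at 3 h. The co-stimulatory genes Cd86 (3028, 3484 and 3795 at 6 h, against 1379, 1548 and 1737 at 3 h) and Cd40 (2121, 2765 and 3104 at 6 h, against 1051, 1258 and 1462 at 3 h) rose by 1.15 ± 0.05 and 1.11 ± 0.04; Cd86 fell in mock cells (-0.68). Cd80 rose by 0.53 ± 0.06 and Cd83 by 0.84 ± 0.04. Ccr7, the receptor that guides mature cells to lymph nodes, had 8131, 9611 and 11932 at 6 h, against 4948, 6575 and 8203 at 3 h (0.62 ± 0.04), and its libraries overlapped between times when genotypes were pooled.

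Class I presentation genes rose as a group, and class II genes gave no direction that held on every scale. Of 26 tested MHC class I presentation genes 21 rose and 2 fell (median 0.89, mock 0.30), with 21 higher and 5 lower with equal total reads, and 23 moved above the mock change. H2-T23 had 4567, 5376 and 5834 at 6 h, against 2025, 2346 and 2481 at 3 h (1.20 ± 0.04), the immunoproteasome subunits Psmb9 (1.13 ± 0.05) and Psmb10 (1.10 ± 0.05) rose, and so did H2-K1 (1.01 ± 0.04), B2m (0.75 ± 0.04) and the peptide transporter gene Tap1 (0.73 ± 0.04). Class I genes are close copies, so reads may be shared among them. Of 17 class II presentation genes 11 rose and 3 fell (median 0.21, mock 0.32), with 5 higher and 5 lower after quantile normalization and 8 higher and 7 lower with equal total reads. Ciita, the regulator of class II transcription, had 2419, 2727 and 2998 at 6 h, against 1082, 1293 and 1514 at 3 h and rose by 1.08 ± 0.04, whereas Cd74 (0.21 ± 0.04) and H2-Ab1 (0.49 ± 0.04) did not depart from the mock change beyond the test. The difference between both classes was not tested.

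Receptors and transcription factors were mixed. Of 34 phagocytic, scavenger and lectin receptors 19 rose and 9 fell (median 0.36, mock 0.22). Quantile normalization and equal total reads each gave 17 higher and 15 lower. Siglec1, a sialic-acid lectin, had 928, 1280.4 and 1510.3 at 6 h, against 275, 387 and 519 at 3 h (1.68 ± 0.06). The activating IgG receptor Fcgr4 had 533, 567 and 603 at 6 h, against 192, 223 and 232 at 3 h (1.38 ± 0.06). The inhibitory IgG receptor Fcgr2b fell to 328, 369 and 413 at 6 h, against 947, 999 and 1050.2 at 3 h (-1.41 ± 0.05), and the lectin Clec10a fell too (-1.40 ± 0.10). In all 4 the libraries of the different times were apart. Of 37 receptors of migration 27 rose and 5 fell (median 0.51, mock 0.12). Quantile normalization gave 20 higher and 12 lower and equal total reads 21 and 10. C5ar1 (1.34 ± 0.05), Fpr2 (1.09 ± 0.04) and Adora2b (1.61 ± 0.10) rose and Ptger2 (-1.11 ± 0.16) fell. Of 32 myeloid transcription factors 18 rose and 6 fell (median 0.28, mock 0.07). Equal total reads gave 15 higher and 14 lower, so no direction is given for the list. Cebpe rose by 1.44 ± 0.07, Cebpb by 0.99 ± 0.07 and Maf by 0.99 ± 0.06, while Rxra had 131, 172 and 186 at 6 h, against 443, 500.0 and 538 at 3 h and fell (-1.57 ± 0.06). Of 32 lysosomal genes 16 rose and 5 fell (median 0.10, mock 0.04). Quantile normalization gave 8 higher and 15 lower and equal total reads 8 and 18, so no direction is given for them either. Lamp2 rose by 0.86 ± 0.04 and Npc1, the lysosomal cholesterol exporter, fell (-0.66 ± 0.05).

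The enzymes Nos2 and Ptgs2 and most hypoxia-inducible genes rose. Of 17 tested genes for itaconate, nitric oxide, oxysterol and tryptophan enzymes 12 rose and 5 fell (median 0.76, mock 0.41), with 11 higher and 5 lower with equal total reads. Nos2, inducible nitric oxide synthase, had 118, 257 and 366 at 6 h, against 13.8, 28.3 and 40.9 at 3 h (3.14 ± 0.13; mock 1.54), and Irg1, the itaconate-forming enzyme, 38533, 48486 and 57264 at 6 h, against 19874, 24573 and 30629 at 3 h (0.96 ± 0.04; mock 0.84). Ptgs2, cyclo-oxygenase 2, had 327, 530.0 and 724 at 6 h, against 117, 135 and 197 at 3 h (1.79 ± 0.11; mock -0.26), and Kynu rose by 1.02 ± 0.05. Of 32 hypoxia-inducible and glycolysis genes 29 rose and 2 fell (median 0.62, mock 0.52, where 25 rose), with 20 higher and 4 lower with equal total reads. Of the 32, 12 moved above and 10 below the mock change, beside 27.5% and 23.1% of all genes. The summed count of the list at 6 h was 93569 ± 2798 in KO cells and 100744 ± 5900 in WT cells after PAMP RNA. In mock cells it was higher, 142392 ± 3687 and 141751 ± 19445 (SD, n = 3 each). Bnip3, a mitophagy receptor, had 776, 906 and 1215 at 6 h, against 198, 236 and 262 at 3 h (2.03 ± 0.07), below the mock median of 2745 at 6 h. The glucose transporter Slc2a1 (1.18 ± 0.04; mock -0.04), Hif1a (0.67 ± 0.04; mock -0.15), Vegfa (1.43 ± 0.04; mock 0.19) and Ankrd37 (2.18 ± 0.14; mock -0.03) moved above the mock change. Of 33 cell death genes 25 rose and 1 fell (median 0.44, mock 0.15), with 19 higher and 11 lower with equal total reads. Zbp1, the sensor of Z-form nucleic acid, had 4719, 5343 and 5907 at 6 h, against 1679, 1953 and 2305 at 3 h (1.44 ± 0.04), Casp1 rose by 1.07 ± 0.05 and Gsdmd, the pore former of pyroptosis, by 1.02 ± 0.05.

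The mitosis genes fell without exception. All 35 tested mitosis genes fell on the deposited scale, after quantile normalization, with equal total reads, with edgeR and with DESeq2. Of all 11845 genes 30.2% fell on the deposited scale. The other settings called 3994 genes lower after quantile normalization, 6673 with equal total reads, 3939 with edgeR and 3639 with DESeq2. The median of the list was -0.86 beside -0.15 in mock cells, where 17 fell and 4 rose. In 34 of the 35 the fall went beyond the mock change, against 23.1% of all genes, and leaving out any single library left all 35 called. Cdc20, the activator of the anaphase-promoting complex, had 73.6, 86.6 and 92.5 at 6 h, against 180.2, 209 and 222 at 3 h (-1.27 ± 0.09; mock -0.01). The spindle motor Kif11 had 226, 256 and 285 at 6 h, against 557, 601 and 650.1 at 3 h (-1.24 ± 0.06) and the centromere protein Cenpf 127, 155 and 200.4 at 6 h, against 316, 345 and 402 at 3 h (-1.17 ± 0.08). No libraries of the different times overlapped in these genes. Nek2 fell by 1.31 and the proliferation marker Mki67 by 0.86, against -0.06 and 0.01 in mock cells. DNA replication genes fell in stimulated and in mock cells: 3 rose and 30 fell of 40 (1 higher and 36 lower with equal total reads), with medians of -0.59 after PAMP RNA and -0.64 in mock. Rrm2, a subunit of ribonucleotide reductase, had 81.9, 91.5 and 129 at 6 h, against 268, 290.5 and 304 at 3 h (-1.60 ± 0.09; mock -0.94), while the helicase subunit Mcm2 fell by 1.10 after PAMP RNA and by 1.38 in mock cells.

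Genes of ribosome assembly fell with and without PAMP RNA. Of 37 ribosome biogenesis genes 1 rose and 30 fell (0 higher and 35 lower with equal total reads), with medians of -0.58 after PAMP RNA and -0.62 in mock cells; Utp20, a part of the small-subunit processome, had 69.2, 79.5 and 101 at 6 h, against 224, 247 and 304 at 3 h (-1.61 ± 0.10). Srm, spermidine synthase, fell to 18.1, 24.9 and 36.6 at 6 h, against 94.5, 108 and 130.5 at 3 h (-2.09 ± 0.14; mock -1.70). The cytosolic ribosomal protein genes had a median of 0.01 (mock 0.01) and no direction that held across scales. There 14 rose and 11 fell of 43, with 0 higher and 36 lower after quantile normalization and 0 and 37 with equal total reads. The same holds for oxidative phosphorylation (median 0.04, mock -0.02), where 11 rose and 8 fell of 40. Equal total reads gave 0 higher and 30 lower for it. Of 30 amino-acid and integrated stress response genes 9 rose and 19 fell (median -0.43, mock -0.23), with 4 higher and 20 lower with equal total reads. The amino-acid transporter Slc7a5 had 130.3, 144 and 167 at 6 h, against 430.4, 473 and 546 at 3 h (-1.71 ± 0.07; mock -2.08), and the tRNA synthetase gene Iars fell by 1.22 beside -0.08 in mock cells. Ddit3, the stress factor CHOP, went the other way, with 233, 257 and 298 at 6 h, against 87.1, 111 and 128 at 3 h (1.25 ± 0.09; mock 0.12). Of 30 chaperone genes 12 rose and 13 fell (median -0.05, mock -0.32), beside a background of 36.0% and 30.2%. In mock cells 4 of them rose and 22 fell. After PAMP RNA 23 moved above the mock change and 3 below it. Quantile normalization gave 9 higher and 17 lower and equal total reads 8 and 18. The heat-shock genes Hspa1b (1.15 ± 0.09), Hspa1a (0.95 ± 0.09), Dnajb1 (0.88 ± 0.05) and Hspa8 (0.85 ± 0.04) rose, and Hspa5, the chaperone BiP, changed by 0.20 ± 0.04 while it fell by 0.71 in mock cells. Of 25 NRF2 and metal response genes 11 rose and 12 fell (median -0.02, mock 0.13). Quantile normalization gave 7 higher and 16 lower and equal total reads 5 and 15. Gclc (-1.08 ± 0.08) and the iron exporter Slc40a1 fell and Prdx1 (1.08 ± 0.05) rose.

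**Figure D4:**
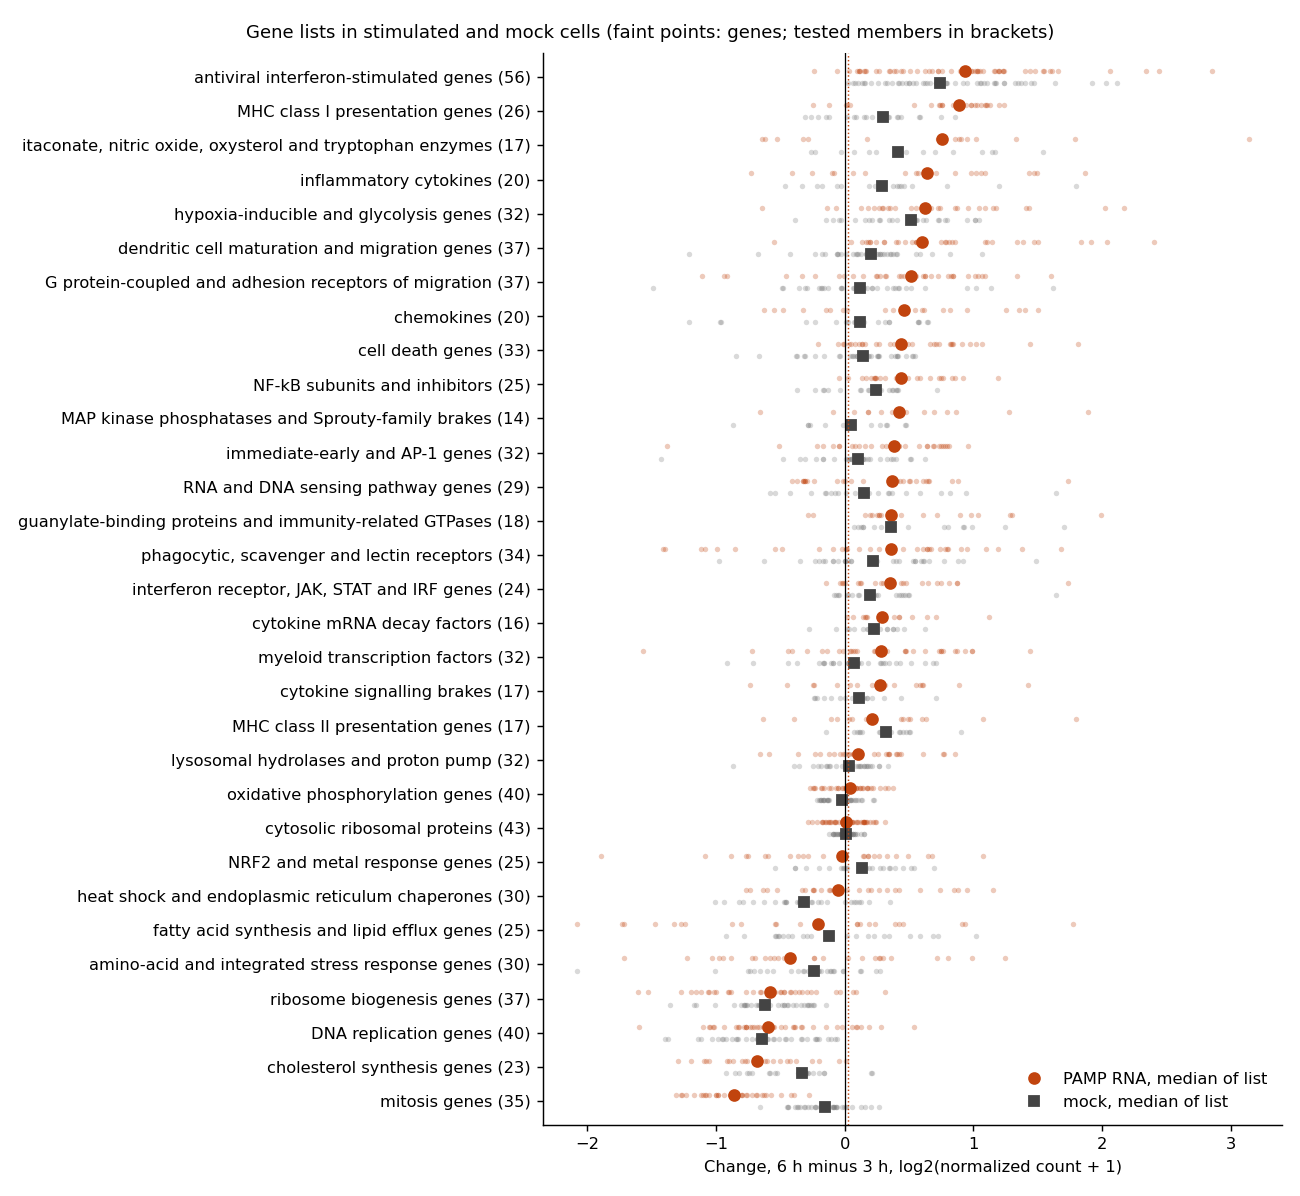
Change of each gene list from 3 h to 6 h (6 h minus 3 h, log2) in stimulated cells (circles, upper of each pair) and mock cells (squares, lower), with large symbols at the list median, faint points for genes and the number of tested members in brackets; the dotted line is the median of all genes tested in stimulated cells, 0.03. The interferon genes are off this scale and left out; the mitosis, MHC class I and maturation lists stand farther from 0 than their mock medians, whereas replication and ribosome biogenesis do not.

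Other large single changes included that of Clic5, a chloride intracellular channel protein. Clic5 had 86.6, 200.3 and 331 at 6 h, against 2.72, 7.45 and 15.9 at 3 h (4.53 ± 0.15) and a mock median of 0.864 at 6 h. Ly6c2, a surface protein of inflammatory monocytes, had 798, 1059 and 1547 at 6 h, against 84.8, 117 and 167 at 3 h (3.15 ± 0.08; mock 1.24). The largest changes were chosen for libraries that do not overlap within a genotype, so their separation is no further result, and Clic5, with a mean under 10 at 3 h, passed the filter on low values only through 6 h. Among the falls, Aff3, a nuclear protein of the AF4 family, had 14.6, 19.7 and 34.2 at 6 h, against 125, 145 and 176 at 3 h (-2.76 ± 0.15). The ring-finger gene Rnf150 had 12.9, 18.3 and 39.1 at 6 h, against 89.6, 116 and 149 at 3 h (-2.47 ± 0.14; mock 0.05). Tbc1d16, a GTPase activator of Rab proteins, had 47.2, 58.6 and 67.6 at 6 h, against 249, 269 and 306 at 3 h (-2.23 ± 0.09). Deptor, an inhibitor of mTOR, fell by 1.87 ± 0.09 and rose by 0.40 in mock cells. Cd163, the haemoglobin scavenger receptor, likewise fell by 1.08 ± 0.16 and rose by 0.92 in mock cells. Slc40a1, the ferroportin gene of the NRF2 and metal list, had 182, 202 and 305 at 6 h, against 684, 849 and 941 at 3 h (-1.89 ± 0.07, mock 0.02). Mir5114 (-2.20 ± 0.14) lies at chr19:44303171-44303231, inside Scd2 (chr19:44293674-44306864) on the same strand, so its reads cannot be told apart from those of Scd2.

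Cholesterol synthesis genes fell. Of 23 tested cholesterol synthesis genes 0 rose and 20 fell (median -0.68, mock -0.33), with 0 higher and 20 lower after quantile normalization and 0 and 23 with equal total reads. Dhcr7, the last enzyme of the pathway, had 99.1, 118 and 126 at 6 h, against 246, 281 and 323 at 3 h (-1.29 ± 0.07) and Sqle, squalene epoxidase, 278, 338 and 429.8 at 6 h, against 632, 715 and 831 at 3 h (-1.07 ± 0.08). The fatty acid list was divided (median -0.20, mock -0.12). There 10 rose and 14 fell of 25, with 6 higher and 16 lower with equal total reads. The desaturase Scd2 had 952, 1086 and 1539 at 6 h, against 4231, 4795 and 5371 at 3 h (-2.08 ± 0.08; mock -0.26). The elongase Elovl6 had 35.8, 46.5 and 53.1 at 6 h, against 125, 155 and 181 at 3 h (-1.73 ± 0.11). Fasn, fatty acid synthase, had 269, 343 and 392 at 6 h, against 953, 1109 and 1268 at 3 h (-1.71 ± 0.07; mock -0.92). In Elovl6 and Fasn all libraries at 6 h lay below all at 3 h. Acsl1, which activates long-chain fatty acids, rose by 1.77 ± 0.05 to 2489, 3336 and 4254 at 6 h, against 791, 941 and 1144 at 3 h.

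The change from 3 h to 6 h was then compared between KO and WT cells. In both genotypes taken apart 2975 genes rose and 2280 fell, and it differed between them in 131 genes: 72 (0.608%) with a higher change in KO cells and 59 (0.498%) with a lower one. In 57 of the 131 both genotypes rose and KO cells rose more, in 36 both fell and KO cells fell more, in 13 both rose and WT cells rose more, in 0 both fell and WT cells fell more, and in 25 the signs were opposite. The number of calls depended on single libraries: leaving out 1 at a time gave 15 to 147 higher and 18 to 80 lower, with the 147 after removal of the shallowest library, KO replicate 1 at 3 h. The cholesterol synthesis genes supplied 11 of the 59, all with a deeper fall in KO cells except Idi1, which changed by -0.22 in KO cells and 0.25 in WT cells. Without single libraries 8 to 11 of the 23 were called, and 11 with edgeR, with DESeq2, after quantile normalization and with equal total reads.

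Hmgcs1, an early enzyme of the pathway, averaged 891 ± 11.5 in KO cells and 1179 ± 80.9 in WT cells at 6 h, and 2341 ± 294 in KO cells and 1594 ± 23.6 in WT cells at 3 h (SD, n = 3 each). It changed by -1.39 ± 0.06 in KO cells and -0.44 ± 0.06 in WT cells, a difference of -0.95 ± 0.09 (limma adjusted p = 3.08e-08). The KO cells were thus the higher at 3 h and the lower at 6 h. Insig1, the sterol-sensing retention factor, differed by -0.70 ± 0.09 and Sqle by -0.75 ± 0.10, while Dhcr7 (-0.09 ± 0.14), Fdps (-0.02 ± 0.12) and Ebp (0.00 ± 0.11) were not called. The summed count of the list shows where the difference sits: 15129.6 ± 220.4 in KO cells and 16586 ± 634 in WT cells at 6 h, and 26659 ± 964 in KO cells and 21145 ± 541 in WT cells at 3 h. Mock cells had a higher KO sum at 3 h too, 23209 ± 342 in KO cells and 18961 ± 370.0 in WT cells, and 16504 ± 367 and 14989 ± 271 at 6 h. In mock cells the difference in change was called for 4 genes in all (1 higher, 0.00844%; 3 lower, 0.0253%), Hmgcs1 among them (-0.42 ± 0.08). The difference of that difference between stimulated and mock cells was called for 6 genes (2 higher, 0.0169%; 4 lower, 0.0338%), including Sqle (-0.64 ± 0.13) and Scd2 (-0.86 ± 0.16) but not Hmgcs1 (-0.53 ± 0.12, limma adjusted p = 0.0923).

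**Figure D5:**
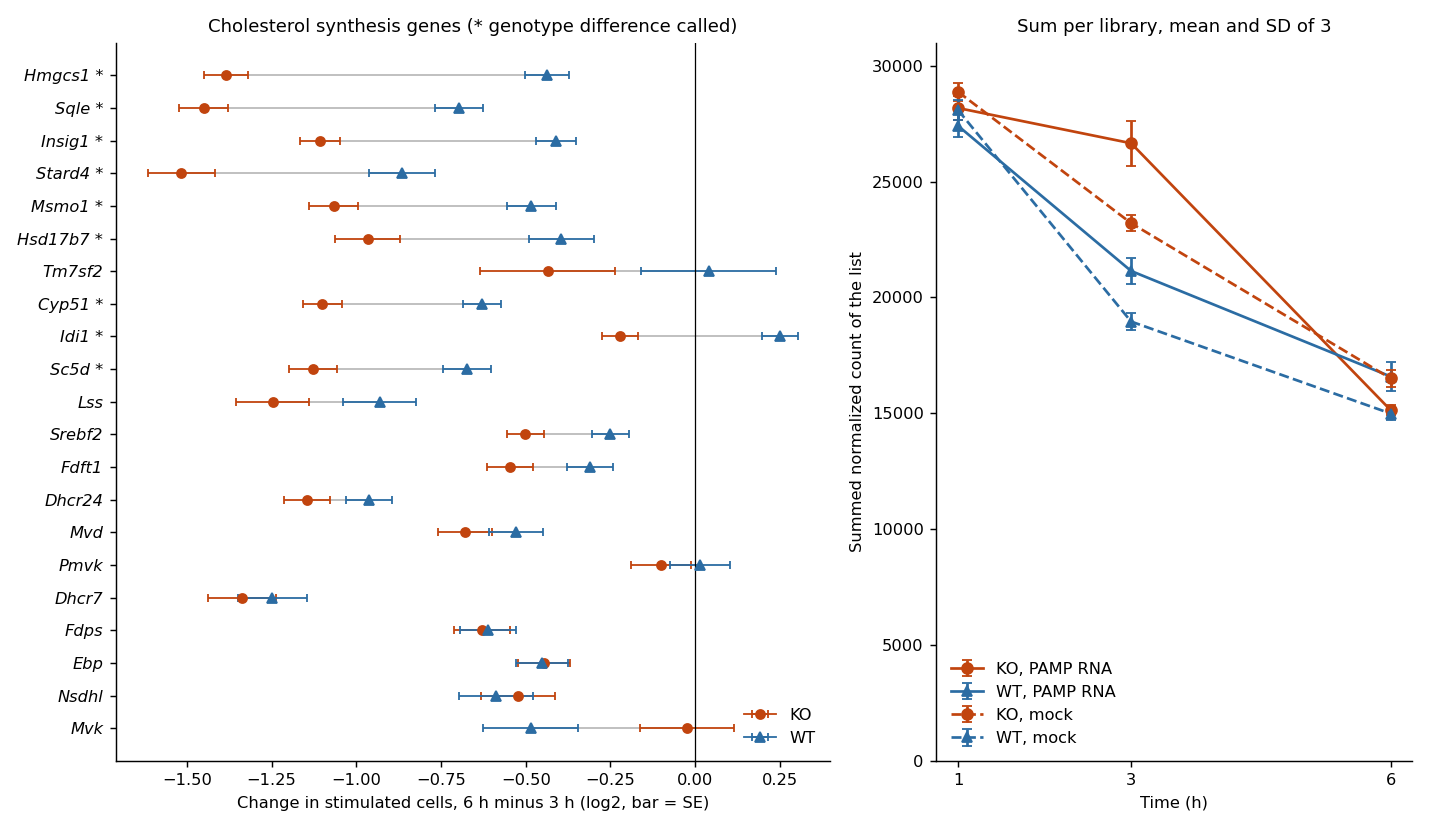
Left, change of 21 of the 23 tested cholesterol synthesis genes from 3 h to 6 h after PAMP RNA (6 h minus 3 h, log2) in KO cells (circles) and WT cells (triangles) with its SE; right, summed normalized count of the list at 1, 3 and 6 h by genotype and treatment, mean and SD of 3 libraries. Of the 21 genes 9 carry the mark of a called genotype difference, and the KO sum exceeds the WT sum at 3 h with and without PAMP RNA.

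Other genes with a deeper fall in KO cells were Scd2, with changes of -2.44 ± 0.06 in KO cells and -1.72 ± 0.06 in WT cells, Fasn (-2.01 ± 0.07 and -1.42 ± 0.07) and Gab1, an adaptor of receptor tyrosine kinases (-1.40 ± 0.16 and -0.53 ± 0.16). Mid1, a microtubule-associated ubiquitin ligase, had the lowest difference among genes with a mean of at least 50 (-1.37 ± 0.22): it averaged 23.4 ± 4.42 in KO cells and 849 ± 31.5 in WT cells at 6 h, and 32.5 ± 11.1 and 437 ± 3.68 at 3 h. Its level thus differed between genotypes at both times. Genes that rose more in KO cells included Ptgs2 (2.19 ± 0.12 in KO cells and 1.40 ± 0.12 in WT cells), Inhba, a subunit of activin (2.13 ± 0.12 and 1.41 ± 0.12), Trem1, an amplifying receptor of myeloid cells (1.31 ± 0.09 and 0.60 ± 0.09), Serpinb9 (2.32 ± 0.06 and 1.76 ± 0.06), Cx3cl1 (1.47 ± 0.06 and 1.03 ± 0.06), Ccl5 (1.61 ± 0.05 and 1.20 ± 0.05) and Cd86 (1.33 ± 0.06 and 0.97 ± 0.06). Of these, Ptgs2, Inhba and Gab1 lost the call after quantile normalization and with no filter on low values, and Cd86 with no filter. For Serpinb9 the KO mean was the lower at 3 h, 941 ± 74.8 against 1428 ± 19.9 in WT cells, and close at 6 h, 4685 ± 36.8 against 4869 ± 473. Among the interferon-stimulated genes Oasl2 (0.91 ± 0.05 in KO cells and 1.25 ± 0.05 in WT cells) and Oas3 (1.04 ± 0.05 and 1.30 ± 0.05) rose less in KO cells. No interferon gene was called: Ifnb1 changed by 0.64 ± 0.08 in KO cells and 0.51 ± 0.08 in WT cells, and the difference of 0.13 ± 0.11 (limma adjusted p = 0.7) does not show that the change was alike.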

How the data were processed

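RNA was measured by RNA-seq (SMARTer cDNA and Nextera XT libraries, which do not keep the strand, sequenced as single reads, per the labels). TopHat, Cufflinks, DESeq2 and the build GRCm38/mm10 are named in the submitters' processing notes, without versions or order. The values are the normalized-count signal the authors deposited, reads per gene divided by a size factor. All values of the 12 libraries were whole reads after undoing the scaling (tolerance 0.01), which gave the read totals. Genes with a mean of at least 10 were tested on log2(value + 1) with limma 3.58.1 in R 4.3.3: genotype plus time over 12 libraries, 4 group means for each genotype and their difference, and 8 group means over 24 libraries for the comparison with mock. P-values were adjusted by Benjamini-Hochberg over all 11845 genes. Alternatives were quantile normalization, equal total reads, other pseudocounts and filters, a replicate block, all 36 libraries, leaving out each library, and edgeR 4.0.16 and DESeq2 1.42.0 on the recovered reads; the KO minus WT difference in mock cells, and its difference from stimulated cells, were added after seeing the data; the procedure was tested on simulated data. Read-ratio intervals are 95% and cover counting error only. The comparison, the 32 gene lists and the 10 marker lists were chosen with earlier results of these data known. Named genes are the 10 largest rises and falls with a mean of at least 50 and no overlap within either genotype, up to 4 leading members of each list, the 5 largest genotype and mock differences each way, and a panel of 26 response genes; others were chosen after their values were seen. Some genes that this rule names, or that belong to a list, are counted but not reported here by name.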

Additional observations from a re-analysis of the deposited data

Results flagged for a closer look

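The change from 3 h to 6 h differed between KO and WT cells for these 22 named genes (limma test of the difference itself). Values are the KO change minus the WT change on the log2 scale. It was higher in KO cells for 2310009A05Rik (1.09), Sirpb1b (0.86), Ptgs2 (0.79), Inhba (0.72), Trem1 (0.71), Serpinb9 (0.55), Cx3cl1 (0.44), Ccl5 (0.41), Bcl2l1 (0.37), Cd86 (0.36), Uqcrh (0.35) and Prdx1 (0.30). It was lower in KO cells for Mid1 (-1.37), 4931440P22Rik (-1.01), Hmgcs1 (-0.95), Gab1 (-0.86), Hs3st3b1 (-0.80), Sqle (-0.75), Scd2 (-0.72), Stard4 (-0.65), Fasn (-0.59) and Dhx58 (-0.38). Hmgcs1, Sqle, Scd2, Fasn, Mid1, Ccl5, Cx3cl1, Serpinb9 and Trem1 were called whichever single library was left out. The deletion itself lies in Dhx58, so its difference is not a readout of the cells. Insig1, Idi1, Oasl2 and Oas3, named above, also differed and are not among the 22.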

How the results depend on the processing

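With equal total reads the counts of genes called higher and lower were 1968 and 6673 in both genotypes together, 1679 and 5654 in WT cells, 1742 and 5911 in KO cells, 34 and 96 for the KO minus WT difference, and 1593 and 5178 for the PAMP RNA change less the mock change. The KO minus WT difference gave 17 and 21 genes with no filter on low values and 146 and 111 with the replicate number as a block. Deviations of same-numbered libraries correlated by 0.033, 0.075 and 0.009 in WT cells and 0.087, 0.015 and 0.029 in KO cells, so the numbers were not taken as pairs. Leaving out 1 library at a time gave 4090 to 4244 higher and 3418 to 3539 lower in both genotypes together, 3128 to 3574 and 2417 to 2870 in WT cells, 3439 to 3820 and 2686 to 3014 in KO cells, 3273 to 3514 and 3098 to 3329 in mock cells, 3137 to 3280 and 2572 to 2754 for the PAMP RNA change less the mock change, and 15 to 147 and 18 to 80 for the KO minus WT difference. That last count fell to 22 and 25 without WT replicate 1 at 3 h, 18 and 20 without WT replicate 2, 35 and 29 without WT replicate 3 and 15 and 18 without KO replicate 2 at 3 h, and to 25 and 27 without WT replicate 3, 38 and 36 without KO replicate 2 and 36 and 36 without KO replicate 3 at 6 h. Quantile normalization reversed Ifih1 (-0.026), Ifit1 (-0.29), Irf9 (-0.11), Mx1 (-0.18), Rplp1 (-0.17) and Stat2 (-0.058), and equal total reads Ifit1 (-0.11), Irf9 (-0.17) and Rplp1 (-0.043). Of 182 called named genes 4 lost the call after quantile normalization, 9 with equal total reads, 2 with edgeR, 2 with DESeq2 and 4 with all 36 libraries. The cause was not tested.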
